A study of Mus musculus with 2 samples.

Results

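Cycling myeloid cells of denervated muscle were examined as 147 droplet barcodes of 1 single-cell library. They were chosen by raw counts of unique molecular identifiers (UMIs, 1 for each captured transcript). A barcode had to hold at least 5000 UMIs with under 10% of them mitochondrial. It had to hold at least 5 UMIs of Top2a, Mki67, Cdk1, Birc5 and Cenpf together, over at least 3 of these genes. It also had to hold at least 3 UMIs of Tyrobp and Fcer1g, and more of these than of the collagen and proteoglycan genes Col1a2, Col3a1 and Dcn. The depth and mitochondrial limits left 8742 of the 36400 barcodes, the myeloid limits left 6105 of these, and the cycle limits left the 147. The other 5958 deep myeloid barcodes served as the comparison, with 37 deep cycling barcodes that did not meet the myeloid limits as a further one.

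The library came from tibialis anterior and gastrocnemius muscle of 2-month-old male S100GFPtg mice, harvested at 7 dpi, that is 7 days after crush of the sciatic nerve. All cells compared here share this genotype, injury and time. Dissociated cells that excluded propidium iodide were sorted for GFP, which is driven by the S100B promoter, and the GFP+ cells were sequenced from their 3' ends. The GFP- cells of the same muscles form a library whose counts were not analysed here. The study's methods speak of pooled male mice and the series design of a single crushed mouse, and the series title names a spinal crush where the sample labels name a sciatic nerve injury. The library held 170648616 UMIs, a median of 2130 per barcode, and 372 of its barcodes, 2 of the 147 among them, are also listed in the GFP- library. With 1 library there is no replicate and no test, and every interval below is a 95% interval that covers counting error only.

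Cells that divide pass from a growth phase into DNA replication (S phase), another growth phase (G2) and mitosis (M), and each step needs its own set of transcripts. Tissue macrophages and dendritic cells descend from marrow or embryonic precursors, yet macrophages can also renew themselves by division in place, and dendritic cell precursors divide before they mature. After a nerve crush, macrophages enter the nerve and muscle, clear debris and support regrowth. Top2a (topoisomerase that untangles DNA), Mki67 (coat of the mitotic chromosome), Cdk1 (the mitotic kinase), Birc5 (subunit of the chromosomal passenger complex) and Cenpf (kinetochore protein) are made mainly by dividing cells. Tyrobp and Fcer1g encode signalling adaptors shared by myeloid cells and natural killer cells.

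Cycling barcodes made up 2.41% (2.04 to 2.82%, exact Clopper-Pearson interval) of the deep myeloid barcodes. Of the 184 deep barcodes that met the cycle limits, 79.9% (73.4 to 85.4%) were myeloid. Among deep non-myeloid barcodes the cycling share was 1.40% (0.990 to 1.93%), from 37 of 2637. The sort for GFP and the depth limit can set these shares. Cycling myeloid barcodes held a median of 22231 UMIs and 4514 genes, against 11424 UMIs and 3141 genes in the other myeloid barcodes and 18181 UMIs in the cycling non-myeloid ones. Median mitochondrial shares were 3.10%, 3.65% and 3.39%. Because a deeper barcode meets a limit on UMIs more easily, each barcode was also thinned at random to 5000 UMIs. Then 80 of 6038 myeloid barcodes were in cycle (1.32%, 1.05 to 1.65%), and all 80 were also in cycle as deposited.

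The genes used for the choice are given as a description. Top2a held 0 to 61 UMIs in a cycling barcode with a median of 12, Mki67 0 to 44 with a median of 8, Cdk1 0 to 17 with a median of 3, Birc5 0 to 20 with a median of 7, and Cenpf 0 to 31 with a median of 2. The sum of these genes ran from 5 to 123 UMIs with a median of 32, and 77 barcodes held all 5 genes, 37 held 4 and 33 held 3. The 5 genes ran from UMIs in 66.7% of cycling barcodes for Cenpf to 98.6% for Mki67. In the other myeloid barcodes, Mki67 was seen in 19.8%, Top2a in 6.56%, Cdk1 in 4.68%, Birc5 in 2.30% and Cenpf in 0.806%. Just inside the limit, 10 cycling barcodes held 5 or 6 UMIs of these genes. Just outside it, 79 other myeloid barcodes held 4, and 110 held 5 or more over fewer than 3 genes, while 70.4% of them held none. Tyrobp and Fcer1g together gave 8 to 147 UMIs (median 38), with 7 barcodes at 10 or fewer, and the 3 stromal genes 0 to 74 UMIs (median 0), with 8 barcodes at 5 or more.

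The myeloid label was checked against 12 marker genes that the choice did not use. All 12 were detected at 10 CPM or more (counts per 1000000 UMIs of the group), and every cycling barcode held at least 12 UMIs of them. Ptprc, the leukocyte phosphatase CD45, was seen in 144 of the 147 (98.0%). Summed, the 12 genes stood at 7123 CPM in cycling myeloid, 15628 CPM in other myeloid and 882 CPM in cycling non-myeloid barcodes. Their levels were thus lower than in the other myeloid barcodes, by 1.13 on the log2 scale in sum. Of the 12 genes 5 were 2-fold or more lower, and 0 when the other myeloid barcodes were weighted to the classes, described below, of the cycling ones (the class mix). Over all features with at least 10 CPM in either group 5.04% were 2-fold or more lower. Lyz2, which encodes lysozyme, was at 3750.3 against 10062 CPM (log2 ratio −1.42, or −0.93 at the class mix), Ctss at 472 against 1259.7 CPM and Fcgr3 at 189 against 481 CPM. Levels of Ptprc (474 and 448 CPM), Spi1 (279 and 319 CPM) and Laptm5 (579 and 622 CPM) lay closer together.

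Markers of other cells were mostly low. Of 8 Schwann cell genes, Sox10, Cdh19 and Foxd3 had 0 UMIs in the cycling myeloid barcodes and the whole list summed to 5.43 CPM, against 10.6 CPM in other myeloid barcodes. S100b, the gene whose promoter drives the reporter, had 4 UMIs in all. The 10 mesenchymal genes summed to 222 CPM against 204 CPM in other myeloid and 10350 CPM in cycling non-myeloid barcodes. Genes of endothelial cells (36.5 CPM), smooth muscle and pericytes (18.4 CPM), satellite cells (13.9 CPM), tenocytes (11.2 CPM), B cells (14.8 CPM) and mast cells (0.905 CPM) were each below their level in other myeloid barcodes. T and NK cell genes were above it, with 70.3 against 38.8 CPM. Of the 154 UMIs of the NK cell genes Nkg7, Klrb1c and Ncr1, 152 came from 4 barcodes, all of them unassigned to a myeloid class below. These 4 carried NK cell genes beside Tyrobp and Fcer1g, and their myeloid label is uncertain. Another list, of marrow progenitor genes, summed to 48.6 against 15.3 CPM, of which Kit gave most, and 23 cycling barcodes held 3 or more UMIs of it. Of its 161 UMIs 131 came from the Xcr1/Clec9a class described below, where the levels were 99.2 against 71.3 CPM in other barcodes of the class. Kit, the 1 gene of the list that reached 10 CPM, was within 2-fold at the class mix, while Myb, below 10 CPM, was not, with log2 ratios of 3.73 and 3.01. Of its granule genes, Mpo was seen in 4 and Prtn3 in 3 cycling barcodes, and Elane, Ctsg and Ms4a3 had 0 UMIs.

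Because the choice itself used cycle genes, differences between cycling and other myeloid barcodes describe the cells chosen and are no test. Of 8419 features with at least 10 CPM in either group, 841 (9.99%) were 2-fold or more higher in cycling barcodes and 424 (5.04%) 2-fold or more lower, and the median log2 ratio was 0.07. The count of lower genes depended on the setting, with 715 on thinned counts and 202 at the class mix. Genes of the cell cycle outside the 5 used for the choice were read as lists by role. The plot of list levels shows the lists of replication and mitosis well above their level in other myeloid barcodes, and the lists of early growth phase genes and cycle inhibitors closer to it.

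**Figure D1:**
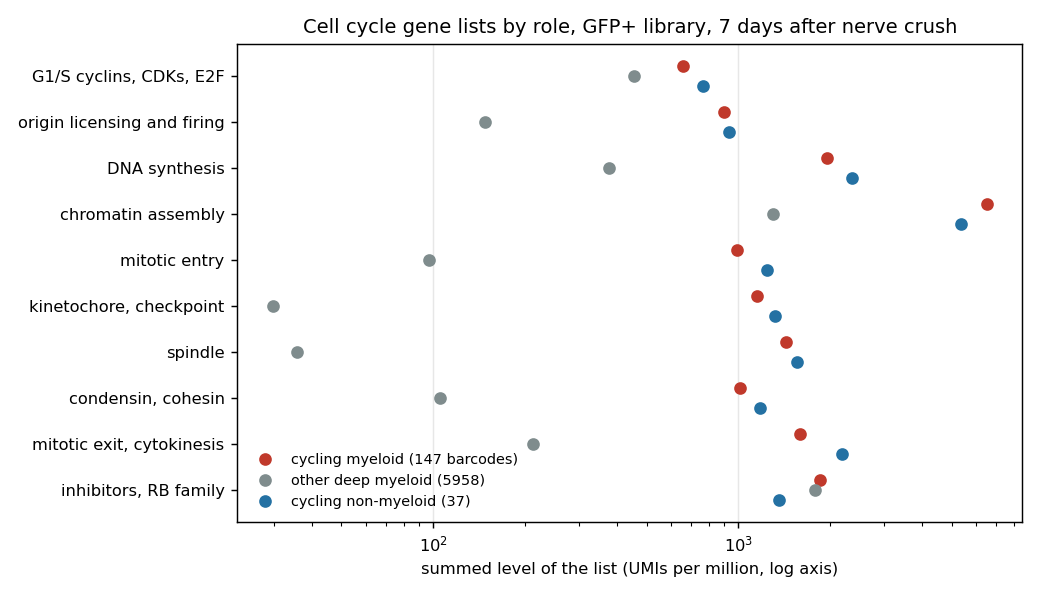
Summed level of each cell cycle gene list (horizontal axis, CPM, log axis) for lists by role (vertical axis) in cycling myeloid, other deep myeloid and cycling non-myeloid barcodes, 1 point a group. The kinetochore list stands at 1153 CPM in cycling and 29.8 CPM in other myeloid barcodes, while the inhibitors stand at 1851 and 1778 CPM.

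Genes of entry into S phase differed least of the lists of cycle drivers. The 12 cyclins, kinases and E2F factors that act between growth and replication summed to 659 against 455 CPM (log2 ratio 0.53, 0.47 to 0.60), and 8 of the 12 were 2-fold or more higher. The cyclin E gene Ccne2 was at 26.6 against 1.08 CPM and the repressor E2f7 at 21.1 against 0.227 CPM (log2 ratios 4.62 and 6.54). D-type cyclins and their kinases were also abundant outside the cycle. Cdk6 was at 141 against 163 CPM, Ccnd1 at 100.2 against 58.0 CPM, and Ccnd3 had the lowest ratio of the list, with 96.6 against 132 CPM (−0.45, −0.61 to −0.29).

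Every replication gene that reached 10 CPM was 2-fold or more higher. Of 17 genes that act on the loading or start of the replicative helicase (origin licensing and firing), 16 reached 10 CPM and 16 were 2-fold or more higher. Their sum was 900.2 against 148 CPM (log2 ratio 2.61, 2.55 to 2.67). The helicase subunit genes Mcm3 and Mcm7 were at 109 against 17.7 CPM and 107 against 7.57 CPM, and Gmnn, the gene of the licensing inhibitor geminin, at 108 against 12.0 CPM. Cdc6, a loading factor, had the lowest ratio, 1.19. All 20 genes of DNA synthesis were higher, with a sum of 1951 against 377 CPM (2.37, 2.33 to 2.41). Pcna, the sliding clamp, held 0 to 50 UMIs in a cycling barcode (median 4) and was at 380 against 159 CPM (1.25, 1.17 to 1.34). It was seen in 76.9% of the other myeloid barcodes too. The polymerase gene Pola1 was at 198 against 32.8 CPM, the dUTPase gene Dut at 155 against 12.0 CPM, and Slbp, for the histone mRNA binding protein, had the lowest ratio, 1.05.

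Chromatin genes gave the highest summed level. H2afz, a variant histone, was seen in all cycling barcodes at 6 to 580 UMIs (median 59). It was at 3635 against 844 CPM (log2 ratio 2.11, 2.08 to 2.13). Hmgb2, a DNA bending protein, was at 1886 against 201 CPM (3.23) and H2afx, the variant histone that marks DNA breaks, at 233 CPM (log2 ratio 3.69). Nasp, a histone chaperone, was the 1 gene of the 10 in this list below 2-fold, with 199.8 against 151 CPM (0.40). Replication-dependent histone genes, grouped by name after their values were seen, have mRNAs that mostly lack a poly(A) tail and are poorly captured by 3' kits. Of 67 such features 27 reached 10 CPM, of which 25 were 2-fold or more higher and 1 lower. Hist1h1b, a linker histone gene, was at 490 against 1.20 CPM and held up to 98 UMIs in a barcode. These genes lie in clusters of near-identical copies, so single members are uncertain.

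Genes of mitosis were 2-fold or more higher throughout, with the highest summed log2 ratios of the lists by role for the spindle (5.33) and the kinetochore (5.27). The 13 genes of mitotic entry, the 15 of the kinetochore, the 16 of the spindle and the 8 of condensin and cohesin all passed 2-fold. Their sums were 988 against 96.5 CPM, 1153 against 29.8 CPM, 1436 against 35.6 CPM and 1012 against 105 CPM. Cks1b, a subunit of cyclin-dependent kinases, was at 228 against 9.18 CPM, cyclin gene Ccnb2 at 148 against 4.22 CPM, and the mitotic brake Wee1 at 34.4 against 13.5 CPM, the lowest ratio of its list (1.35). At the kinetochore, the motor gene Cenpe was at 172 against 2.36 CPM, Cdca8 at 167 against 3.23 CPM and Spc24 at 131 against 1.68 CPM. On the spindle, Nusap1 was at 204 against 2.24 CPM, Tpx2 at 146 against 1.75 CPM and the motor gene Kif23 at 163 against 11.9 CPM. The condensin genes Smc4 and Smc2 were at 351 against 50.8 CPM and 281 against 14.5 CPM. Wee1, Ncapg2 (2.03) and Incenp (3.32) marked the low ends of these lists, and the choice had used 5 genes of the same kind.

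All 12 genes of mitotic exit and cytokinesis were 2-fold or more higher as well, with a sum of 1591 against 212 CPM (log2 ratio 2.91). Ube2c and Ube2s encode the ubiquitin conjugating enzymes that work with the anaphase promoting complex, the first to start and the second to extend a ubiquitin chain. Ube2s held 0 to 34 UMIs (median 9) and was at 487 against 163 CPM (1.58, 1.50 to 1.66), with UMIs in 80.8% of other myeloid barcodes. Ube2c held 0 to 66 UMIs (median 2) and was at 289 against 1.20 CPM (7.91, 7.60 to 8.24), with UMIs in 66.7% of cycling and 1.26% of other myeloid barcodes. The part of free RNA in these shares was not tested. Espl1, the gene of separase, had the lowest ratio, 1.47.

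Cycle inhibitors did not share a direction. Of 15 genes 13 reached 10 CPM, 4 of these were 2-fold or more higher and none 2-fold lower, beside 9.99% and 5.04% of all 8419 features. The sum of the list was 1851 against 1778 CPM (log2 ratio 0.06, 0.02 to 0.09). The phosphatase gene Cdkn3 was at 67.3 against 1.19 CPM (5.82), the pocket protein gene Rbl1 at 49.2 against 8.76 CPM (2.49), Cdkn2c at 69.1 against 18.1 CPM (1.93) and Cdkn2d at 89.9 against 31.7 CPM (1.50). The most abundant ones lay lower in cycling barcodes by small amounts. Btg1 was at 494 against 540.2 CPM, Btg2 at 408 against 486 CPM, and Cdkn1a, the p21 gene, at 360 against 422 CPM (−0.23, −0.31 to −0.15). Cdkn1c was lowest, at 8.75 against 14.1 CPM (−0.69, −1.27 to −0.16).

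The promoters of the most abundant cycle genes are printed because the motifs searched were found at different shares in replication and mitosis genes. RefSeq promoters of mouse build GRCm38.p6, 250 bases before to 50 bases after the start of a transcript, were searched on both strands for CCAAT (a box bound by the factor NF-Y), TTTGAA (core of the cell cycle homology region) and TTTNNCGC (E2F core). CCAAT and its reverse can overlap, as they do in Ube2c. CCAAT was found in 37.4% of 32851 promoters, in 56.4% of the 39 promoters of the licensing and DNA synthesis genes (the S list) and in 66% of the 50 promoters of the mitotic entry, kinetochore, spindle and exit genes (the G2M list). TTTGAA was in 17.9%, 17.9% and 66% of them, and TTTNNCGC in 5.17%, 38.5% and 12%. Promoters were found for 31 of 37 S list and 46 of 56 G2M list genes. Below are the promoters of the most abundant genes of each list that had one, with matched letters in capitals. Pcna lies at chr2:132253131-132253430 (minus strand), Pola1 at chrX:93632106-93632405 (minus), Ube2s at chr7:4812291-4812590 (minus) and Ube2c at chr2:164769679-164769978 (plus).
Pcna: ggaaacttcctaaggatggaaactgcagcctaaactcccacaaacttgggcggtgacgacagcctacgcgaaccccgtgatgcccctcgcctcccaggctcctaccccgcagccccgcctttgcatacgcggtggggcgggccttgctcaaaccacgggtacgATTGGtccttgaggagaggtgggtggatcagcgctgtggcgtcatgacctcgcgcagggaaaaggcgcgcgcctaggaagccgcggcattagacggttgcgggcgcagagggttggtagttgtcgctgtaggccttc
Pola1: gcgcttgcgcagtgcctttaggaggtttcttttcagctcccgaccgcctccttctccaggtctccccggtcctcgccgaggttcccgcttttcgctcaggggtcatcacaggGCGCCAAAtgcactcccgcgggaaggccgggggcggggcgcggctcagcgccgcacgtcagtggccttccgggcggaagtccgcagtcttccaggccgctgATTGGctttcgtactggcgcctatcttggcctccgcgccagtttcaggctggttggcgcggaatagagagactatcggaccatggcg
Ube2s: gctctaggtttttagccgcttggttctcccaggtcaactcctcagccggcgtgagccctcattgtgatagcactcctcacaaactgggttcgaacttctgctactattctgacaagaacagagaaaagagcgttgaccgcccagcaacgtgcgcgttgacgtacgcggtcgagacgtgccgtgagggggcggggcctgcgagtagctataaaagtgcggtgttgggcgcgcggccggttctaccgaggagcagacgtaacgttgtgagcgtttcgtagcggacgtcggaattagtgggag
Ube2c: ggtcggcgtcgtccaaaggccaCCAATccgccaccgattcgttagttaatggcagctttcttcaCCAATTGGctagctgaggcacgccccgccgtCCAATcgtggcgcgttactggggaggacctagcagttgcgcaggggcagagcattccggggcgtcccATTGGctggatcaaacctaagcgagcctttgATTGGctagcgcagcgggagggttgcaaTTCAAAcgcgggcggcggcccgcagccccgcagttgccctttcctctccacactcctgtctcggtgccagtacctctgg
Pcna had 1 CCAAT, on the opposite strand at position −87 from the start. Pola1 had 1 CCAAT at −37 and 1 TTTNNCGC at −138, both on the opposite strand. Ube2c had 6 CCAAT and 1 TTTGAA, and Ube2s, the member of the G2M list seen in most other myeloid barcodes, had no match in this window. A match is a description of the letters and was not tied to any measurement of binding.

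Cycle genes stood at similar levels in cycling myeloid and cycling non-myeloid barcodes. Both groups had to meet the same cycle limits, so a likeness is partly set by the choice and is no test. The 5 genes of the choice summed to 1838.5 against 1926 CPM. The S list summed to 2851 against 3285 CPM (log2 ratio −0.20, −0.27 to −0.14) and the G2M list to 5168 against 6304 CPM (−0.29, −0.33 to −0.24). Exit and cytokinesis genes were the lowest list, with 1591 against 2188 CPM (−0.46, −0.54 to −0.38), and inhibitors the highest, with 1851 against 1363 CPM (0.44, 0.34 to 0.54). Chromatin genes were higher in the myeloid barcodes, with 6518 against 5369 CPM (0.28, 0.23 to 0.33). The non-myeloid side rests on 37 barcodes of mixed identity, with mesenchymal (10350 CPM) and B cell (983 CPM) genes among them.

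Cycling myeloid barcodes spread over the phases of the cycle. After thinning to 5000 UMIs, a barcode held 0 to 37 UMIs of the S list (median 12) and 0 to 85 of the G2M list (median 24), against medians of 2 and 2 in other myeloid barcodes. More S than G2M UMIs were held by 48 of the 147 (32.7%, 25.2 to 40.9%), called S-weighted here, and more G2M UMIs by the other 99. This is a division of a continuous range, with 14 barcodes within 2 UMIs of equality. The S-weighted barcodes held medians of 22 S and 8 G2M UMIs, the G2M-weighted ones 7 and 31. The scatter of both sums shows the barcodes along a band from high S to high G2M counts. The share depends on which barcodes meet the cycle limits. It was 12.5% among the 80 that met them on thinned counts and 22.1% with limits of at least 10 UMIs over 4 genes.

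**Figure D2:**
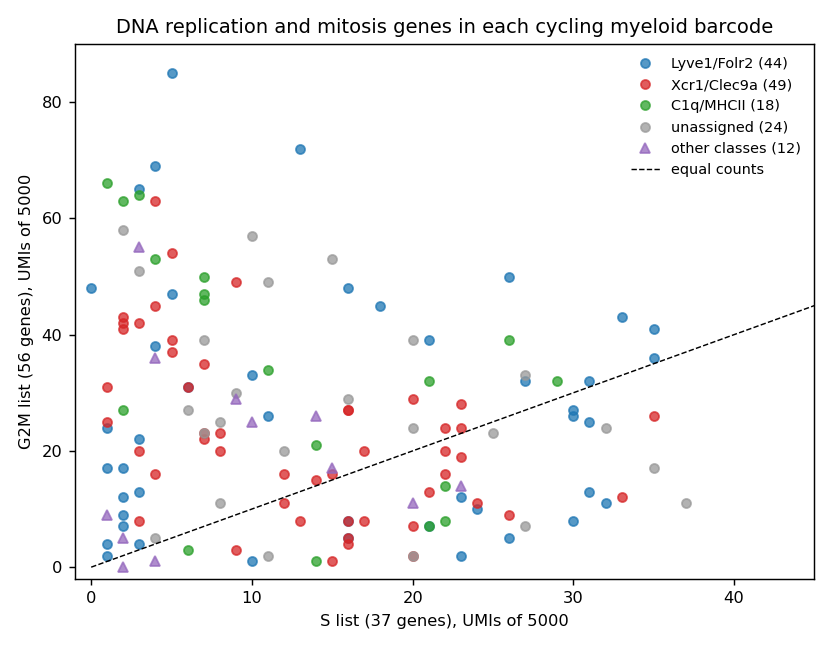
UMIs of the S list (horizontal axis) and of the G2M list (vertical axis) in each of the 147 cycling myeloid barcodes after thinning to 5000 UMIs, coloured by myeloid class, with a dashed line at equal counts. The barcodes reach 37 S list and 85 G2M list UMIs, and the 48 S-weighted ones lie below the line.

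Many single genes separated the ends of this range, which the division by S and G2M lists favours for list members. Not all of them did. Of the S list, Dbf4 was lower in S-weighted barcodes, at 32.6 against 91.6 CPM (log2 ratio −1.49, −2.03 to −0.99), and Tk1 was level (−0.01). Of the G2M list, Mybl2 was higher in S-weighted barcodes (1.02, 0.11 to 1.93). Between S-weighted and G2M-weighted barcodes, the anaphase activator Cdc20 was at 4.18 against 115 CPM, Ube2c at 30.1 against 435 CPM and Ccnb2 at 14.2 against 224 CPM. Mcm6 was at 169.7 against 40.1 CPM, Lig1 at 253 against 69.4 CPM and Pcna at 635 against 236 CPM. Genes outside both lists differed as well. The centromeric histone gene Cenpa was at 25.9 against 291 CPM (log2 ratio −3.49, −4.06 to −2.97). Cyclin D1 (Ccnd1) was at 161 against 66.1 CPM (1.28, 0.96 to 1.60), E2f1 at 94.5 against 22.7 CPM (2.06, 1.56 to 2.58), and the chromatin remodeller Hells at 115 against 25.5 CPM (2.17, 1.70 to 2.65). The replication histones were higher in G2M-weighted barcodes, with 773 against 2127 CPM (−1.46, −1.56 to −1.36). Of the S-weighted barcodes 20 of 48 held no histone UMI after thinning, against 10 of 99 G2M-weighted ones.

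A few myeloid barcodes outside the cycle limits held as many S list UMIs as a typical cycling one. At least 12 S list UMIs, the median of the cycling barcodes, were held by 68 of 5958 other myeloid barcodes (1.14%, 0.887 to 1.44%), and 54 of these held at least 1 UMI of the 5 genes used for the choice. At least 4, the lower quartile of the cycling barcodes, were held by 1452 (24.4%, 23.3 to 25.5%), so the ranges of the S list overlapped. At least 24 G2M list UMIs were held by 0 of 5958, a count that the choice itself set, since these barcodes were kept apart by their low counts of 5 genes of mitosis. The 5 genes of the choice were themselves lower in S-weighted barcodes, with 938 against 2347 CPM.

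The myeloid barcodes were divided into classes by 8 lists of 8 genes, with no cycle gene among them, scored on thinned counts. A barcode took the class of its highest score and stayed unassigned when that score was not above 0 or fewer than 3 list genes were seen. Such classes are ranges of a score, named by their genes. The Lyve1/Folr2 class (scavenger and folate receptors known from resident macrophages) held 44 of the 147 cycling barcodes (29.9%). The Xcr1/Clec9a class (a chemokine receptor and a lectin known from cross-presenting dendritic cells) held 49 (33.3%), and the C1q and MHC class II class 18 (12.2%). The Cd209a/Flt3 class held 6, the Gpnmb/Fabp5 class 4, the Ly6c2/Chil3 class 1, the Ccr7/Fscn1 class 1 and the neutrophil class 0, with 24 unassigned.

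The share in cycle differed between classes. In the Xcr1/Clec9a class 49 of 355 barcodes were in cycle (13.8%, 10.4 to 17.8%), against 98 of 5750 in all other classes together (1.70%, 1.39 to 2.07%), and the intervals did not overlap. The class made up 5.81% of the deep myeloid barcodes and 33.3% of the cycling ones. On thinned counts the share was 6.17% (3.81 to 9.37%), an interval above those of the Lyve1/Folr2, Gpnmb/Fabp5, Ly6c2/Chil3, C1q and MHC class II and Cd209a/Flt3 classes. It overlapped that of the unassigned barcodes, at 2.60% (1.52 to 4.12%), and those of the small Ccr7/Fscn1 and neutrophil classes. The Lyve1/Folr2 class had 2.12% in cycle (1.54 to 2.83%), the C1q and MHC class II class 1.26% (0.751 to 1.99%) and the Cd209a/Flt3 class 2.14% (0.788 to 4.59%). The lowest shares were in the Gpnmb/Fabp5 class, with 4 of 762 (0.525%, 0.143 to 1.34%), and the Ly6c2/Chil3 class of monocyte genes, with 1 of 534 (0.187%, 0.00474 to 1.04%). With looser gates of at least 3 UMIs over at least 2 list genes this order did not hold, as 114 of 5650 barcodes were then in cycle for Gpnmb/Fabp5 (2.02%), 85 of 4368 for Lyve1/Folr2 (1.95%) and 15 of 1193 for Ly6c2/Chil3 (1.26%). Neutrophil genes marked 11 barcodes, and 0 of 11 in cycle allows a share of up to 28.5%.

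**Figure D3:**
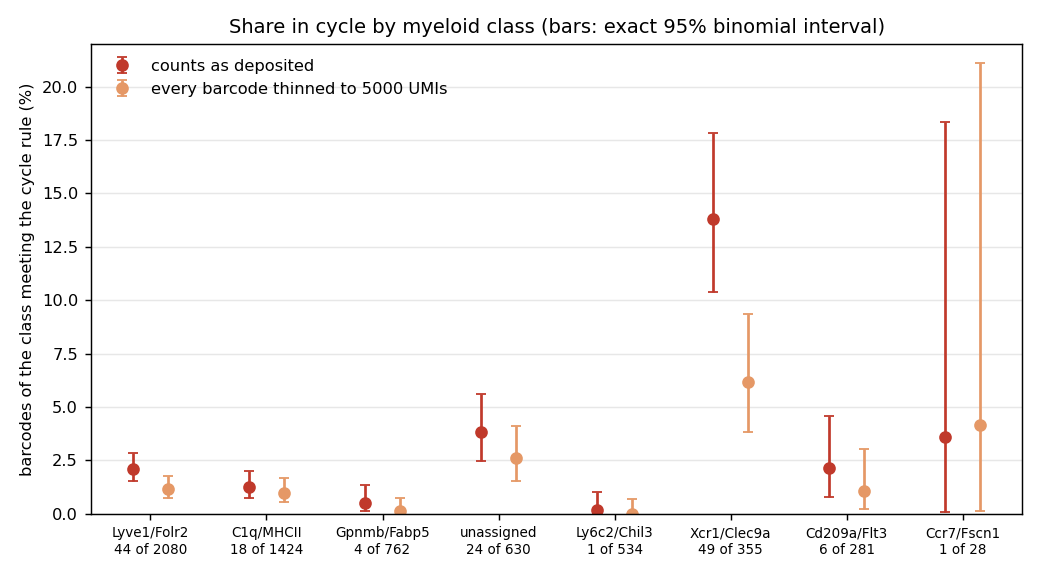
Share of the barcodes of each myeloid class that were in cycle (vertical axis, percent, bars are exact binomial 95% intervals) by class (horizontal axis, with the numbers in cycle and in all), on counts as deposited and on counts thinned to 5000 UMIs, without the 11 neutrophil barcodes. The Xcr1/Clec9a class lies highest at 13.8% and 6.17%, and the Ly6c2/Chil3 class lies at 0.187% and 0%.

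The size of the Xcr1/Clec9a share also depended on how the class was drawn. With the looser gate, 70 of 1782 barcodes were in cycle (3.93%, 3.07 to 4.94%). This share was no longer the highest, as 3 of 67 were in cycle for Ccr7/Fscn1 (4.48%), and its interval met that for Cd209a/Flt3, with 60 of 2500 (2.40%, 1.84 to 3.08%). With a gate on Xcr1 and Clec9a alone, chosen after the values were seen, 20 of the 150 barcodes with 2 or more thinned UMIs of these genes were in cycle (13.3%, 8.34 to 19.8%), or 7 of 118 on thinned counts (5.93%). In this class the cycling barcodes held a median of 25115 UMIs and the others 14280. Of the class's 355 barcodes 42 lay near a neighbouring class, none of them in cycle, and in the other classes 3 cycling barcodes of the Lyve1/Folr2 class and 1 of the C1q and MHC class II class did. Of the 5 cycling barcodes among the 5% of deep barcodes with the highest doublet scores, 3 were of the Xcr1/Clec9a class, and the share of such scores was 3.40% in cycling and 3.61% in other myeloid barcodes.

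Class list genes in cycling barcodes are given as a description, since the same lists assigned the classes and so set the contrast with cycling barcodes of other classes. In the 3 larger classes the genes named below lay within 2-fold of their level in the other barcodes of the class. Fcna of the Lyve1/Folr2 list did not, at 130 against 331 CPM in that class. In cycling barcodes of the Xcr1/Clec9a class, Naaa was at 820.4 CPM against 687 CPM in the others of the class and 169.6 CPM in cycling barcodes of other classes. Wdfy4, needed for cross-presentation, was at 639 against 562 and 69.7 CPM, and the transcription factor Irf8 at 649.96 against 518 and 77.3 CPM. Xcr1 itself was at 209 against 165 and 3.51 CPM. After thinning, these barcodes held a median of 16 UMIs of their own list, 174 of the C1q and MHC class II list (whose MHC genes dendritic cells also make) and 0 of the Lyve1/Folr2 list. In the Lyve1/Folr2 class, the mannose receptor gene Mrc1 was at 3084 CPM in cycling and 3208 CPM in other barcodes, against 900.2 CPM in cycling barcodes of other classes. Cd163 was at 698 against 870.4 and 98.7 CPM and Folr2 at 559 against 809 and 77.2 CPM. In the C1q and MHC class II class, Cd74 was at 9255 against 14055 CPM, H2-Aa at 4159 against 6373 CPM and H2-Eb1 at 3235 against 5108 CPM. Of the same list, C1qa lay closer, at 3190.5 against 3552 CPM, and Cx3cr1 was higher, at 263 against 216 CPM. Of the smaller classes, the cycling barcodes of the Gpnmb/Fabp5 class held Fabp5 at 833 against 5576 CPM, Lgals3 at 3168 against 8199 CPM and Ctsd at 1822 against 2318 CPM. Gpnmb itself was at 18.3 against 195 CPM and Lpl at 82.4 against 1313 CPM, both lower. Those of the Cd209a/Flt3 class held Mgl2 at 549 against 746 CPM, Cd209a at 166 against 700.01 CPM and Clec10a at 229 against 583 CPM. Flt3, of which 2 UMIs were counted in these 6 barcodes, was at 11.4 against 78.6 CPM, and at 68.8 CPM in cycling barcodes of other classes. The single cycling barcode of the Ly6c2/Chil3 class had no UMI of Ly6c2, Chil3, Hp or Vcan.

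Cycle genes were higher in cycling barcodes of each of the larger classes. The log2 ratio of cycling over other barcodes of the same class for kinetochore genes was 5.11 (4.98 to 5.25) in the Lyve1/Folr2 class, 5.62 (5.43 to 5.80) in the C1q and MHC class II class and 4.95 (4.71 to 5.20) in the Xcr1/Clec9a class. For the S list it was 2.67, 2.03 and 2.18. S-weighted barcodes made up 31.8% of the cycling Lyve1/Folr2 class (14 of 44), 27.8% of the C1q and MHC class II class (5 of 18) and 36.7% of the Xcr1/Clec9a class (18 of 49, 23.4 to 51.7%), with intervals that overlapped. Chromatin genes stood higher in the Xcr1/Clec9a class in cycle and out of it, with 9123 against 2851 CPM, compared with 4239 against 1080 CPM in the Lyve1/Folr2 class.

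Ratios of growth factor receptor genes changed with the classes compared. Csf1r, the receptor on which most macrophages depend, held 0 to 36 UMIs in cycling barcodes (median 5) and was at 266 against 584 CPM (log2 ratio −1.13, −1.23 to −1.04). Flt3, a receptor of dendritic cell precursors, was at 65.8 against 15.8 CPM (2.06, 1.84 to 2.27) and Kit, the stem cell factor receptor, at 37.1 against 5.08 CPM (2.87, 2.57 to 3.17). When the other myeloid barcodes were weighted to the class mix of the cycling ones, these ratios were −0.85, 0.37 and 0.44. Csf3r, the granulocyte receptor, was at 11.8 against 41.2 CPM (−1.81). Of the 10 receptor genes 2 were 2-fold or more higher and 2 lower, against 0 and 1 at the class mix. Among all 8419 features 9.99% were 2-fold or more higher and 5.04% lower, without weighting by class. Of the 8 ligand genes only Kitl (stem cell factor) reached 10 CPM, at 52.5 against 108 CPM (−1.03, −1.26 to −0.82). Csf1 had 7 UMIs and Il34, the other ligand of the Csf1r product, had 0 in cycling barcodes.

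**Figure D4:**
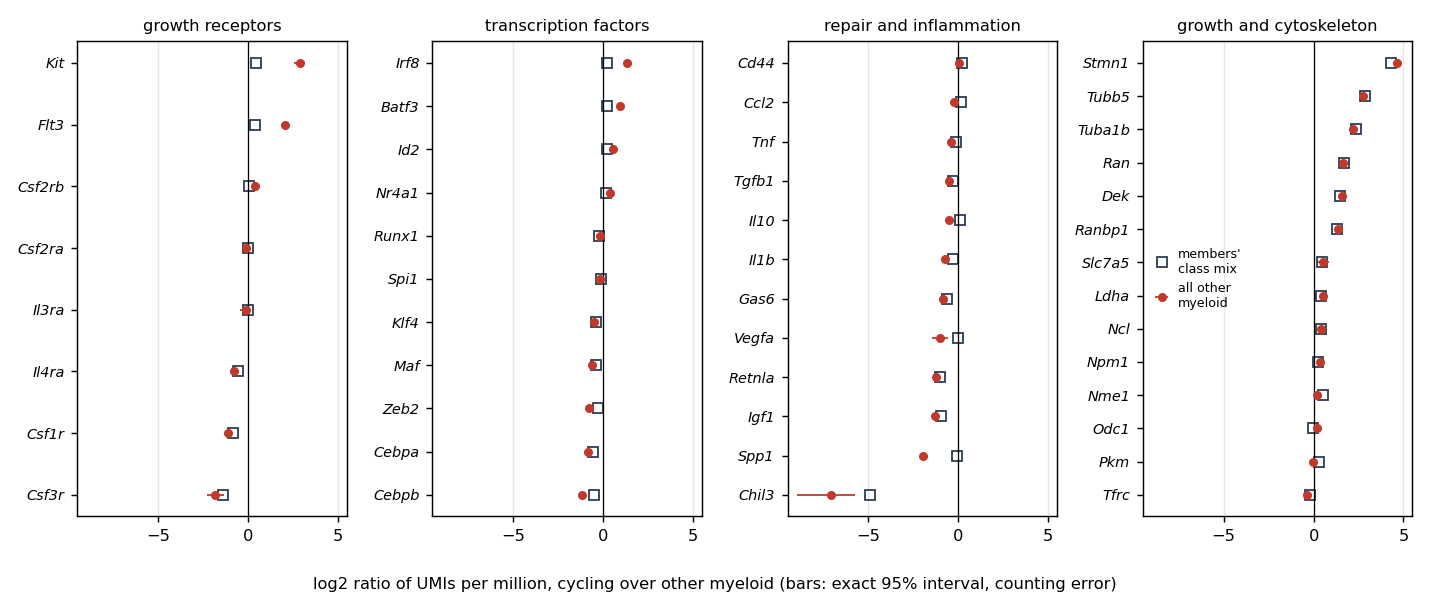
Log2 ratios of CPM, cycling over other myeloid barcodes (horizontal axis), for genes of 4 lists (vertical axis), against all other myeloid barcodes (points, with exact 95% intervals for counting error) and against other myeloid barcodes at the class mix of the cycling ones (squares). Kit lies at 2.87 and at 0.44 with the class mix, Spp1 at −1.95 and −0.08, and Stmn1 at 4.64 and 4.32.

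Transcription factor genes showed the same dependence. Irf8 was at 305 against 122 CPM (log2 ratio 1.32, or 0.21 at the class mix). Cebpb, a factor of inflammatory macrophages, was at 526 against 1192 CPM (−1.18, or −0.52 at the class mix). Of the 14 genes of the list 1 was 2-fold or more higher and 2 were lower, and 0 either way at the class mix. Over all 8419 features 9.99% were 2-fold or more higher and 5.04% lower against all other myeloid barcodes. Spi1 (279 against 319 CPM) and Runx1 (702 against 786 CPM) were among those within 2-fold. Myc, a driver of growth, was at 16.3 against 16.1 CPM (0.02, −0.41 to 0.41).

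Genes of growth and the cytoskeleton depended little on the class mix. Of 14 genes 6 were 2-fold or more higher in cycling barcodes, 6 also at the class mix, and none was 2-fold lower. The shares over all 8419 features were 9.99% higher and 5.04% lower. Stmn1, which frees tubulin from microtubules, held 0 to 70 UMIs (median 22) and was at 1037 against 41.5 CPM (log2 ratio 4.64, 4.57 to 4.72). The tubulin genes Tubb5 and Tuba1b were at 1357 against 201 CPM (2.75) and 1024 against 221 CPM (2.21). Ran and Ranbp1, of the nuclear transport and spindle cycle, were at 536 against 171 CPM and 379 against 146 CPM, and the chromatin gene Dek at 546 against 180.0 CPM. The nucleolar genes Npm1 and Ncl had log2 ratios of 0.34 and 0.41, and Tfrc, the transferrin receptor gene, was at 40.7 against 51.6 CPM.

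Of 14 genes for repair and inflammation factors, 13 reached 10 CPM, 5 of them 2-fold or more lower in cycling barcodes and none higher. Of all 8419 features 5.04% were 2-fold or more lower and 9.99% higher. At the class mix 2 were 2-fold or more lower. Chil3, a chitinase-like gene of monocytes, had 4 UMIs in cycling barcodes, 1.21 against 165 CPM (log2 ratio −7.10, −8.97 to −5.74). Igf1, a growth factor for muscle and nerve, was at 58.6 against 145 CPM (−1.31, or −0.97 at the class mix). Spp1, which encodes osteopontin, was at 98.4 against 379.9 CPM (−1.95, −2.11 to −1.79), and at −0.08 with the class mix. Retnla was at 184 against 435 CPM, with 62.5% of its UMIs in a single cycling barcode. The chemokine gene Ccl2 was at 2240 against 2605 CPM (−0.22) and Cd44, a receptor of osteopontin, at 646 against 624 CPM (0.05).

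Within classes these genes differed in their direction. In the Xcr1/Clec9a class several genes of these lists were lower in cycling than in other barcodes, among them Csf1r at 40.9 against 217 CPM (log2 ratio −2.41, −2.83 to −2.01) and Ccl2 at 274 against 946 CPM (−1.79). Retnla was at 4.55 against 110 CPM there, Tnf at 59.1 against 219 CPM and Il10 at 11.4 against 39.6 CPM. Spp1 went the other way there, at 168 against 42.7 CPM (1.98, 1.69 to 2.26). A UMI of Spp1 was held by 32 of 49 cycling and 56 of 306 other barcodes of the class, and after thinning by 24.5% (13.3 to 38.9%) and 11.8% (8.38 to 15.9%), intervals that overlapped. Without the barcode of highest count in each group, which held 27.9% of the cycling UMIs, Spp1 was at 125 against 38.3 CPM. In the G2M-weighted barcodes of all classes Spp1 was at 145 CPM, against 15.1 CPM in the S-weighted ones. In the Lyve1/Folr2 class Kitl was at 101 against 200.3 CPM and Igf1 at 129.7 against 252 CPM. In the C1q and MHC class II class Il10, an anti-inflammatory cytokine gene, was at 302 against 162 CPM and the factor gene Klf4 at 241 against 499 CPM.

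Genes outside the lists by role were ranked by their ratio, and the 10 highest and 10 lowest at 20 CPM or more in either group are given here. Hist1h2af was at 41.3 against 0.0401 CPM (log2 ratio 10.01, 8.43 to 12.31), Depdc1a at 38.6 against 0.0534 CPM (9.50) and Pimreg at 28.7 against 0.0401 CPM (9.48). Hist1h3c, Hist1h1b, Pbk (a mitotic kinase), Ska1 (kinetochore attachment), Nek2 (centrosome kinase), Neil3 (repair glycosylase) and Hist1h2ab followed, from 8.69 down to 7.94. The 4 histone genes belong to the replication-dependent group above. Each of these 10 was seen in at most 1.17% of other myeloid barcodes and in 32.7% to 59.2% of cycling ones.

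At the other end, Olr1, an oxidised lipid receptor gene, had 3 UMIs in cycling barcodes, 0.905 against 38.3 CPM (log2 ratio −5.40, −7.68 to −3.85). Sirpb1c was at 1.81 against 30.4 CPM (−4.07), the fatty acid binding protein gene Fabp4 at 15.1 against 208 CPM (−3.78), the protease inhibitor gene Slpi at 5.13 against 63.0 CPM (−3.62) and the proton pump gene Atp6v0d2 at 3.02 against 30.7 CPM (−3.34). Thbs1 (−3.32), F10 (−3.27), Plekhg1 (−2.60), Cd209f (−2.58) and Gngt2 (−2.50) made up the rest of the 10. Fabp4 was seen in 12.2% of cycling and 13.9% of other myeloid barcodes, or in 6.12% and 9.62% after thinning to equal depth. Its log2 ratio was −1.98 with equal weight per barcode and −1.13 on thinned counts. At the class mix Fabp4 was at −2.27, Thbs1 at −1.60 and F10 at −1.53. Over all 8419 features the class mix left 202 genes 2-fold or more lower in place of 424.

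The reporter was read in the same way. Gfp held 0 to 60 UMIs in cycling barcodes (median 6) and was seen in 90.5% of them and in 79.5% of other myeloid barcodes, groups of unlike depth. Its level was 368 against 462 CPM (log2 ratio −0.33, −0.41 to −0.25), and 218 CPM in cycling non-myeloid barcodes. At the class mix of the cycling barcodes the ratio was 0.16, so its direction turned with the classes compared. Within the Lyve1/Folr2 class Gfp was higher in cycling barcodes, at 341 against 200.4 CPM (0.77, 0.59 to 0.94), and likewise in the C1q and MHC class II class, at 658 against 412 CPM (0.68, 0.48 to 0.86), with separate intervals in both. In the Cd209a/Flt3 class it was at 669 against 471 CPM (0.51, 0.22 to 0.78), but 1 of the 6 cycling barcodes held 51.3% of the UMIs, and without the highest barcode of each group the values were 527 and 461 CPM. In the Xcr1/Clec9a class it was 236 against 259 CPM (−0.14, −0.32 to 0.04), an interval that includes no difference, and in the Gpnmb/Fabp5 class 723 against 792 CPM (−0.13, −0.47 to 0.19), which includes it too. It was lower in unassigned cycling barcodes, at 383 against 486 CPM (−0.34, −0.56 to −0.13), and in the single cycling barcode of the Ly6c2/Chil3 class, at 198 against 1097 CPM (−2.47, −4.10 to −1.25). The single cycling barcode of the Ccr7/Fscn1 class had 0 Gfp UMIs. Since the cells had been sorted for GFP, these levels hold for sorted cells.

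**Figure D5:**
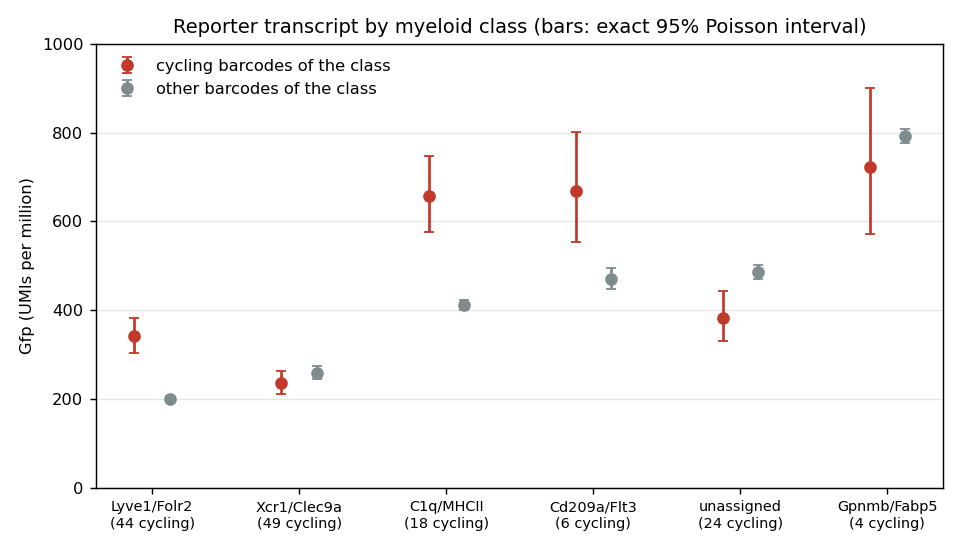
Gfp level (vertical axis, CPM, bars are exact Poisson 95% intervals) in cycling and other barcodes of each myeloid class with at least 4 cycling barcodes (horizontal axis). In the Lyve1/Folr2 class the values are 341 and 200.4 CPM with separate intervals, and in the Xcr1/Clec9a class 236 and 259 CPM.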

How the data were processed

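The deposited values are raw UMI counts, 1 for each gene in each barcode, which Cell Ranger produced for the authors without normalization. The file header gives Cell Ranger 8.0.1, the submitters' processing notes list Cell Ranger 7.1.0, Seurat 4.30 and mm10, and the study's methods name both GRCm39 and GRCm38, so the build is uncertain and no gene position was taken from the files. Barcodes had passed the authors' cell calling. Of the 2 reporter features 1 had 58126 UMIs and is called Gfp, and the other had 2 UMIs and was not used.

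From the deposited counts, CPM was computed as the UMIs of a gene summed over the barcodes of a group, per 1000000 UMIs of that group. CPM carry exact Poisson intervals, shares exact binomial (Clopper-Pearson) ones and log2 ratios exact conditional ones. No pseudocount was used. Features with under 10 CPM in both groups were left out of counts of genes past 2-fold, which were called with no test. Class scores were means of standardised log1p UMIs over each list's genes, after thinning to 5000 UMIs. Near a class limit means a gap of under 0.1 between the highest 2 scores. The class mix weights other myeloid barcodes by the classes of the cycling ones. The study's DecontX and DoubletFinder were not run. Doublets were scored with Scrublet, and the highest 5% were left out as an alternative. The 5 genes of the cycle limits are in no cycle list. Named genes were the 3 most abundant and the lowest ratio of each cycle list, the 3 largest ratios of each myeloid list, the 3 most abundant genes of a class in it, and the 10 highest and 10 lowest ratios at 20 CPM or more outside all lists, without mitochondrial, ribosomal and unnamed gene models. A few items are not reported here. Others named were chosen after their values were seen. The members and all lists were chosen with earlier results of these data known. Steps were tested on simulated data. The tools were scanpy 1.11.5, scikit-learn 1.9.0, scipy 1.17.1, numpy 2.4.6, matplotlib 3.10.9 and pandas 2.3.3 under Python 3.11.15. Alternatives changed the depth limit, the mitochondrial limit, the cycle and stromal limits, doublets, thinning, the comparison group, the weight per barcode and the class gates.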

Additional observations from a re-analysis of the deposited data

How the results depend on the processing

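No paired analysis was possible because each group held 1 library. For values that answer a comparison, 109 alternative values stayed within their interval or within 1.5 times the count and 40 moved further. Of those, the sign turned in 1, the Gfp ratio at the class mix. Of values of the cycle, myeloid and leading genes and of the lists by role 1945 stayed, 400 moved and 1 of a gene past 2-fold turned direction. With ratios under 2-fold counted as well, 49 of these values had the other sign. Thinning to 5000 UMIs moved most. It put the share of deep myeloid barcodes in cycle at 1.32%, with 1.18% in the Lyve1_Folr2, 0.133% in the Gpnmb_Fabp5, 0% in the Ly6c2_Chil3 and 6.17% in the Xcr1_Clec9a class. It gave 715 genes past 2-fold lower, log2 ratios of 2.25 for the S list, 4.06 for the G2M list and −0.13 for Gfp against other myeloid barcodes, −0.043 for the G2M list against cycling non-myeloid ones, and 12.5% of cycling barcodes weighted to S. It turned the ratio of Csf3 to 0.49. With at least 10 cycle UMIs over 4 genes the share of deep myeloid barcodes in cycle was 1.70%, with 1.44% in the Lyve1_Folr2, 0.131% in the Gpnmb_Fabp5 and 0% in the Ccr7_Fscn1 class. The log2 ratios were then 4.04 for the G2M list, −0.42 for Gfp and −0.095 for the G2M list against cycling non-myeloid barcodes, with 22.1% of cycling barcodes weighted to S. With at least 8000 UMIs the share in cycle of the Ccr7_Fscn1 class was 0%, as without the highest doublet scores, and the G2M list ratio 3.82. With at least 3000 UMIs the ratios against cycling non-myeloid barcodes were −0.13 for the S list and −0.24 for the G2M list. With under 5% mitochondrial counts the G2M list ratio was 3.82, and with at most 1 stromal UMI it was 3.82. The log2 ratio of G2M list, cycling myeloid against cycling non-myeloid, was −0.092 with at most 1 stromal UMI. Against myeloid barcodes with 0 cycle UMIs the S list ratio was 2.56. At the class mix of the members the log2 ratio of the S list was 2.36, of the G2M list 3.73 and of Gfp 0.16, with 202 genes past 2-fold lower. With equal weight per barcode they were 2.41, 3.74 and −0.19, and −0.11 for the S list against cycling non-myeloid barcodes. Class gates gave shares in cycle of 2.02% for Gpnmb_Fabp5, 1.26% for Ly6c2_Chil3, 2.44% for C1q_MHCII and 3.93% for Xcr1_Clec9a. The gate on Xcr1 and Clec9a, the histone list and leaving out the barcode of highest count were chosen after seeing the data. The causes of these changes were not tested beyond what each setting does. A barcode with too few UMIs of the 5 genes does not meet the cycle limits, and whether barcodes of early S phase were missed in this way was not tested.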

Other observations

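In 110 of the myeloid barcodes just outside the cycle limits, most UMIs of the 5 cycle genes were of Mki67. Few of the genes per barcode is how these barcodes were picked. Of the 110 barcodes with 5 or more UMIs of the 5 cycle genes over fewer than 3 of them, 100 held at least 4 Mki67 UMIs, and Mki67 gave 636 of their 721 UMIs of these genes. After thinning to 5000 UMIs they held a median of 2 UMIs of the S list and 1 of the G2M list, against 12 and 24 in cycling barcodes. Their median depth was 18090 UMIs. They lay in the C1q and MHC class II class (33), the Gpnmb/Fabp5 class (23), the Lyve1/Folr2 class (22), the Xcr1/Clec9a class (12) and others. These barcodes were looked at after their values were seen.

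Haemoglobin transcripts stood apart in the same comparison. The 6 erythroid genes summed to 15.4 CPM in cycling and 701 CPM in other myeloid barcodes, and Hba-a1 was at 4.83 against 271 CPM. Yet the gene was seen in 4.76% of cycling and 4.50% of other myeloid barcodes, groups of unlike depth. A single other barcode held up to 1780 of its 5000 thinned UMIs in this gene.

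Myb, a factor of progenitor cells, was at 6.04 CPM in cycling and 0.454 CPM in other myeloid barcodes, with UMIs in 8.84% and 0.436% of them.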
